A study of Mus musculus with 4 samples.

Results

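Immediate early genes were examined in cultured mouse neural stem cells: Fos, Fosb, Fosl1, Jun, Junb, Jund, Egr1, Ier2, Ier3 and Myc. The members were every probe set that the platform's annotation gives to 1 of these genes alone, which found all 10 genes in 12 probe sets, of 12393 genes in 20380 probe sets with a single gene symbol. Fosl1 and Jun had 2 probe sets each and the others 1. Immediate early genes need no new protein for their transcription and respond quickly to growth factors, stress and the handling of cells. FOS and JUN family proteins pair through leucine zippers to form AP-1, EGR1 is a zinc finger activator, and MYC binds DNA with its partner MAX. In cells grown with EGF, the ERK kinase cascade is a main route to their promoters, through factors of the ELK and SRF families.

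Neural stem cells of Olig1 KO embryos, measured on 3 Affymetrix arrays, were set against cells of wild type embryos, measured on 1 array. Olig1 encodes a basic helix-loop-helix factor of the oligodendrocyte lineage. Both genotypes were on a C57/Bl6 background, were taken from the ganglionic eminences at embryonic day 14.5 and were cultured without serum and with EGF. KO replicate 1 has no number in its title, and KO replicates 2 and 3 are numbered 37 and 38. The labels name no allele and do not state if each KO sample came from its own embryo or culture. The p-values therefore cover just the scatter of these samples, which could be technical. With 1 wild type array, every difference from it has no replicate on the wild type side, and an exact permutation of the 4 arrays cannot give a p under 0.25.

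Values are MAS5 signals on a linear scale, and the number of arrays limits their precision. Here "at background" means no higher than the brightest of 27 probe sets for bacterial transcripts without a target, which was 21.3, 39.99 and 87.8 in KO replicates 1, 2 and 3 and 30.5 in wild type. The Olig1 probe set gave 3840, 4438 and 8548 in KO replicates 1, 2 and 3, against 7618 in wild type, so it did not separate the genotypes, and a KO array below is an array labelled Olig1 KO. Of 13 neural stem cell markers, 11 were above background in all 4 arrays, Sox2 and Nes among them. So were 4 of 5 astrocyte markers (Aqp4, Aldh1l1, S100b and Gja1) and 3 of 6 neuronal markers. Of other types, 2 of 7 microglial markers (Csf1r and Cd68), 2 of 7 mesenchymal markers (Col1a2 and Acta2) and 0 of 6 endothelial markers were. Ptprc of microglia, Tek of endothelium and Pdgfrb of mesenchyme were at background in all 4. The arrays fell into pairs across genotype. Xist, transcribed from the inactive X chromosome, gave 8472, 160.9 and 46.5 in KO replicates 1, 2 and 3, against 9480 in wild type. Eif2s3y, a gene of the Y chromosome, had signals of 1.53, 654 and 1160 in the KO arrays, against 0.61 in wild type. For 18S ribosomal RNA (3 probe sets) the median signal was 7.24, 946 and 2823 in the KO arrays and 4.64 in wild type. Spiked-in bacterial and phage transcripts (18 probe sets) had median ratios to the wild type array of 0.898, 1.89 and 2.75 in KO replicates 1, 2 and 3. The wild type array thus went with KO replicate 1, and KO replicates 2 and 3 went together. By Xist and Eif2s3y, wild type and KO replicate 1 read as female, and KO replicates 2 and 3 as mainly male. Sex was therefore not balanced between KO and wild type.

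No immediate early gene passed the KO against wild type test, and 6 of them, Fos, Jun, Junb, Jund, Egr1 and Ier2, were higher in both KO replicate 1 and wild type than in KO replicates 2 and 3, as were 25.8% of all 7436 genes tested. Jun alone among the 8 members kept by the filter on low values was lower in every KO array than in wild type, by 1.11 log2 units on average with 1 probe set and by less with the other. The fit was limma on log2(signal + 14.4), a pseudocount equal to 0.1 times the overall median signal. It covered 7436 genes, each by its brightest probe set, after the dimmest 40% were left out. Fosb and Fosl1 were among those left out. At an adjusted p under 0.05, limma called 0% of the 7436 genes and none of the 8 kept members. At an unadjusted p under 0.05 it took 168 of all genes and none of these 8. In the same fit over 12228 single probe sets, 0% were called, and none of the members' 9 kept probe sets. Fold changes below use this log2 scale, on which changes of dim genes look smaller than they are. Since these are RNA pools of whole cultures, fewer cells of a type and less RNA per cell cannot be told apart.

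**Figure D1:**
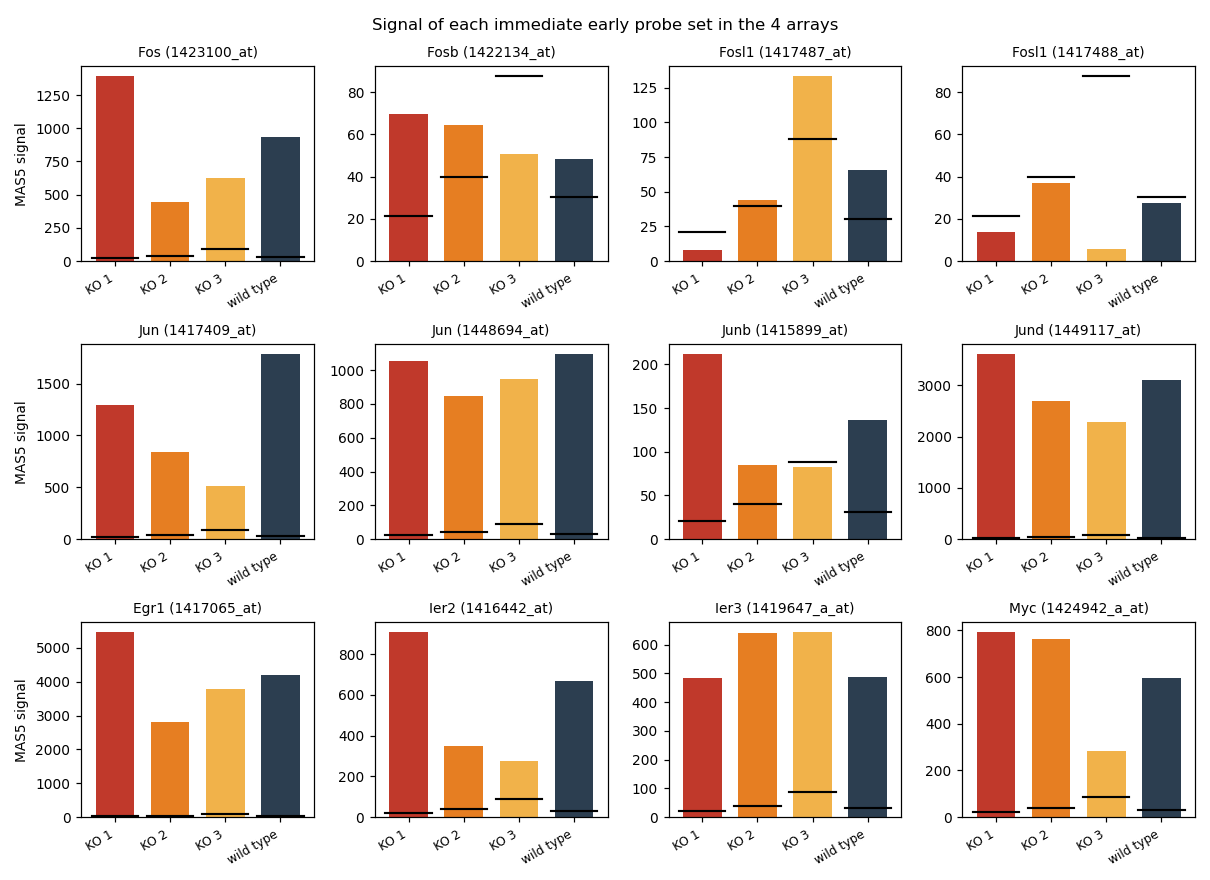
MAS5 signal (linear, vertical axis) of the 12 probe sets in KO replicates 1, 2 and 3 and the wild type array, 1 bar per array. The black line at each bar is the highest untargeted bacterial control of that array. Fos, Ier2 and Junb are highest in KO replicate 1, next highest in wild type and lower in KO replicates 2 and 3, while all 4 bars of the second Fosl1 probe set lie under the line.

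Fos, whose protein binds DNA as a partner of JUN proteins, gave signals of 1396, 447.7 and 623 in KO replicates 1, 2 and 3, against 932 in wild type. KO replicate 1 was the highest array and wild type lay inside the KO range. The KO mean was 822 ± 504 (SD, n = 3), and KO minus wild type came to -0.34 on the log2 scale (SE 0.59, 95% confidence interval -1.72 to 1.03, limma adjusted p = 0.99997). The interval includes a 2-fold change in either direction.

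Fosb, a FOS relative best known for its lasting forms in stimulated neurons, gave 69.5, 64.4 and 50.9 in the KO arrays, against 48.4 in wild type. It was the only member lower in wild type than in every KO array, but KO replicate 3 was at background, so the difference has no exact size. The log2 difference without the filter was 0.27 (SE 0.35, limma adjusted p = 0.99998 over 12393 genes). Fosl1, which encodes FRA1, was measured by 2 probe sets. The brighter gave 8.22, 44.0 and 133.8 in KO replicates 1, 2 and 3, against 65.5 in wild type, with KO replicate 1 at background. The other was at background in all 4 arrays. Neither dim gene thus gave a sized difference.

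Jun encodes the AP-1 subunit that can pair with itself or with FOS proteins. Its brighter probe set gave 1289, 838 and 507 in KO replicates 1, 2 and 3, against 1789 in wild type. Wild type was the highest array, KO replicate 1 came next, and the groups did not overlap. The KO mean was 878 ± 393 (SD, n = 3), a log2 difference of -1.11 (SE 0.50, 95% confidence interval -2.29 to 0.06, limma unadjusted p = 0.060, adjusted p = 0.99997). The second Jun probe set gave 1053, 847 and 950 in the KO arrays, against 1098 in wild type. Wild type was again highest, but the log2 difference was -0.21 (SE 0.33, 95% confidence interval -0.99 to 0.57, limma adjusted p = 0.9991 over the probe sets). With the mean of both probe sets the difference was -0.66 (SE 0.37), so the size for Jun depends on which probe set is read. Within the pair of wild type and KO replicate 1, the brighter probe set differed by -0.47 and the second by -0.06. Wild type was above every KO array in 20.6% of the 7436 genes and below every KO array in 23.2%, and among the 8 kept members the counts were 1 and 0.

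Junb, which tends to oppose JUN in growth control, gave 212.4, 85.03 and 82.8 in KO replicates 1, 2 and 3, against 136.1 in wild type. KO replicate 3 was at background, and wild type lay inside the KO range, so the difference of -0.21 (SE 0.52) has no exact size. Jund, the JUN protein present in most resting cells, gave 3622, 2695 and 2283 in the KO arrays, against 3105 in wild type. Its log2 difference was -0.14 (SE 0.36, 95% confidence interval -0.99 to 0.71, limma adjusted p = 0.99997), and the KO arrays lay on both sides of wild type.

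Egr1, the zinc finger factor induced through ELK and SRF, gave 5483, 2818 and 3789 in KO replicates 1, 2 and 3, against 4186 in wild type. The KO mean of 4030 ± 1349 (SD, n = 3) was 96.3% of the wild type signal. The log2 difference was -0.11 (SE 0.42, 95% confidence interval -1.09 to 0.87, limma adjusted p = 0.99997). Ier2, a nuclear protein gene of the early response, gave 910.8, 347.1 and 275.0 in the KO arrays, against 667.6 in wild type. KO replicate 1 was 3.31 times KO replicate 3, and wild type lay between them. The log2 difference of Ier2 was -0.57 (SE 0.62, 95% confidence interval -2.02 to 0.88, limma adjusted p = 0.99997).

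Ier3, a stress and survival gene also induced by ERK, ran the other way between the pairs. It gave 484.8, 638.7 and 645.2 in KO replicates 1, 2 and 3, against 485.7 in wild type, so KO replicate 1 and wild type were nearly equal and both lower than the other KO arrays. The log2 difference was 0.26 (SE 0.33, 95% confidence interval -0.51 to 1.03, limma adjusted p = 0.99997). Myc, a growth regulator, followed neither pattern. It gave 795.6, 763 and 281.4 in the KO arrays, against 597 in wild type, with KO replicate 3 far below the rest and wild type inside the KO range. Its log2 difference was -0.10 (SE 0.58, 95% confidence interval -1.47 to 1.27, limma adjusted p = 0.99997).

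**Figure D2:**
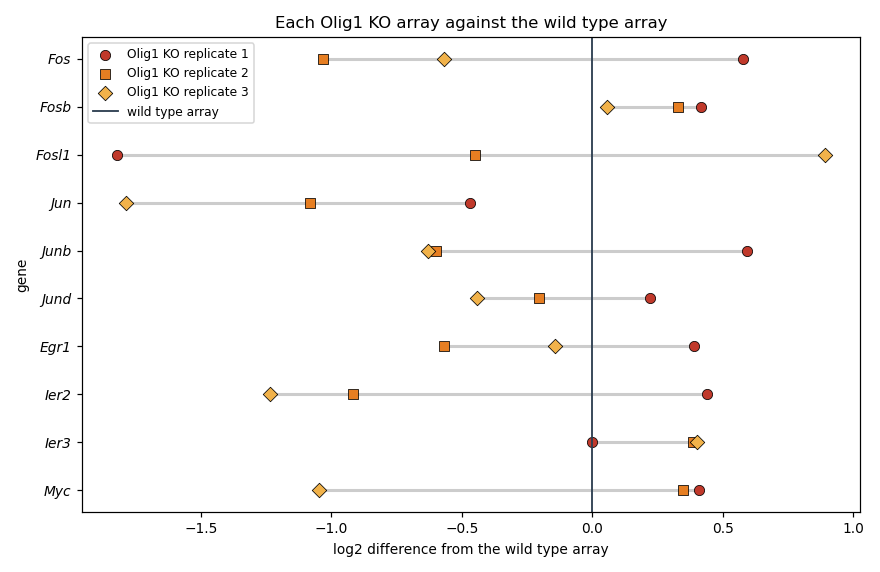
Log2 difference of KO replicates 1 (circle), 2 (square) and 3 (diamond) from the wild type array (vertical line at 0), for the brightest probe set of each of the 10 genes. Fos, Junb, Jund, Egr1 and Ier2 have KO replicate 1 to the right of the line and KO replicates 2 and 3 to its left, while all 3 KO arrays lie to the left for Jun.

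The kept members varied widely among the KO arrays. The SD of log2 signal over the 3 KO arrays had a median of 0.68 over the 8 kept members, against 0.27 over all 7436 genes, and it was above the all-gene median in 7 of the 8. Ier2 had an SD of 0.89, Fos 0.83 and Myc 0.82. Ier3, the least variable, had 0.23. The log2 difference had a median of -0.18 over these 8, against -0.00014 over all genes. Without KO replicate 1 the members' median was -0.49, without KO replicate 2 it was -0.065 and without KO replicate 3 it was -0.047. This log2 difference was below 0 in 7 of the 8, all but Ier3, and in 3723 of the 7436 genes. On the linear scale the KO mean of Myc, 613, was above its wild type signal of 597.

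**Figure D3:**
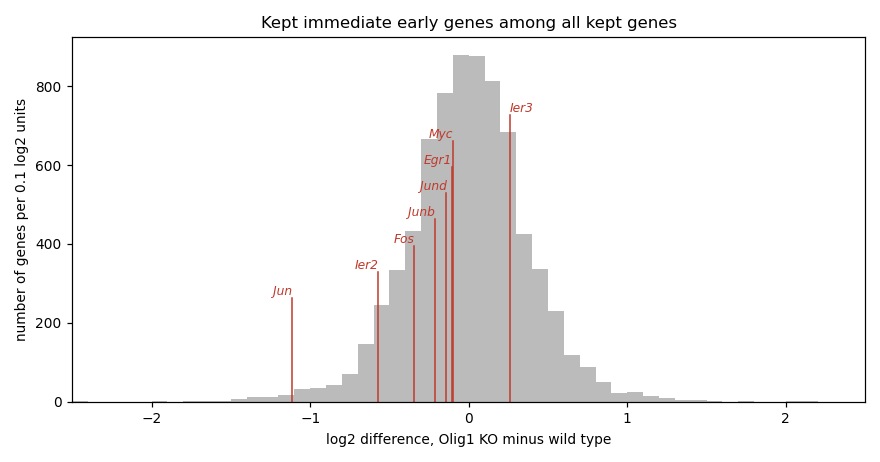
Number of genes (vertical axis) per 0.1 log2 units of the difference of KO from wild type, for all 7436 kept genes, with the 8 kept immediate early genes marked in red. Marker heights only keep the names apart. Jun lies at -1.11 and the other 7 between -0.57 and 0.26.

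Set against the pairs of arrays, 6 members, Fos, Jun, Junb, Jund, Egr1 and Ier2, had KO replicate 1 and wild type both above KO replicates 2 and 3, beside the 25.8% of all genes given above. For Junb the value of KO replicate 3 was at background. The reverse, both below, was found for Ier3 alone and in 24.8% of all genes. Both Jun probe sets showed the first pattern. In 5 of these 6 genes, all but Jun, KO replicate 1 was also above wild type. Its log2 difference from wild type was 0.58 for Fos, 0.59 for Junb, 0.44 for Ier2, 0.39 for Egr1, 0.22 for Jund and -0.47 for Jun, and 0.41 for Myc, which is not among the 6. Over all kept genes, KO replicate 1 was above wild type in 53.5%. The log2 differences of KO replicate 1 are also those with the array pair as a block in limma. With the block, the difference rests on KO replicate 1 and wild type alone. Its residual scatter comes only from KO replicate 2 against KO replicate 3, so it does not measure the scatter of the arrays compared. The direction for Fos, Junb, Jund, Egr1, Ier2, Ier3 and Myc was the opposite of that over all 3 KO arrays, although for Ier3 the blocked value was -0.0028. All of these differences share the 1 wild type array.

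Other measures differed between the same pairs. The summed signals of all 8 lists of cell type markers did so, with KO replicate 1 and wild type both above KO replicates 2 and 3 for 3 lists (neuron, astrocyte and endothelium) and both below for 5 (neural stem cell, oligodendrocyte, microglia, mesenchyme and erythroid). Several sums were mostly dim: 0 of 6 endothelial and 0 of 3 measured erythroid markers were above background in all 4 arrays. At background in all 4 were 2 of the 3 erythroid and 2 of the 4 oligodendrocyte markers. A sum can also differ from most of its markers. The sum of 13 neural stem cell markers was 38889, 54328 and 58521 in KO replicates 1, 2 and 3 and 41962 in wild type. Most of it was Vim and Fabp7, the latter at 13667, 25380 and 34007 in the KO arrays and 16547 in wild type. Fabp7, Vim and Notch1 shared the split of the sum. Nes, Sox9, Slc1a3, Msi1 and Sox1 had the opposite split, and the other markers of this list had neither. For 5 astrocyte markers the sum was 3731, 2396 and 3430 in the KO arrays and 4783 in wild type, but S100b alone of them had this split. Aqp4 gave 120.9, 179.2 and 428.1 in the KO arrays and 309.5 in wild type. For 4 measured oligodendrocyte markers the sum was 146, 250 and 390 in the KO arrays and 196 in wild type. Mbp, the only 1 of these above background in all arrays, did not share the split, at 53.2, 123.7 and 224.4 against 173.5. Olig2, the relative of Olig1, gave 4939, 3411 and 2694 in the KO arrays, against 4278 in wild type. The summed signal of 6 neuronal markers was 1649, 1040 and 971 in KO replicates 1, 2 and 3 and 2067 in wild type, most of it Map2, at 1447, 784 and 593 in the KO arrays and 1766 in wild type. Other neuronal markers did not share this split: Tubb3 gave 63.3, 61.9 and 92.0 in the KO arrays and 46.9 in wild type, and Dcx was highest in KO replicate 3. Tubb3, Dcx and Map2 were above background in all 4 arrays, and Rbfox3 and Stmn2 were at background in 3 and 2 of them. The beta-actin signal at the 3' end over that at the 5' end, which reflects RNA integrity, was 1.25, 1.30 and 1.82 in the KO arrays and 1.11 in wild type. The same ratio for Gapdh was 0.794, 1.03 and 0.842 in the KO arrays and 0.759 in wild type, highest in KO replicate 2 rather than 3. The part of these measures in the values of the immediate early genes was not tested, nor was that of the Xist, ribosomal RNA and spike-in differences given above.

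The promoter DNA of 4 members is shown because Fos, Jun and Junb shared the first pattern and Ier3 had the reverse. Each run is the 130 bases before the annotated start, 5′ to 3′ on the gene's strand, from RefSeq on GRCm38.p6, with TGACG, TGANNTCA and TATAAA in capitals, searched on both strands. TGACG is the core of the cyclic AMP response element and lies inside TGANNTCA where the N letters are C and G. The stretches are chr12:85473760-85473889 on the plus strand for Fos, chr4:95052223-95052352 on the minus strand for Jun, chr8:84978749-84978878 on the minus strand for Junb and chr17:35821583-35821712 on the plus strand for Ier3.
Fos: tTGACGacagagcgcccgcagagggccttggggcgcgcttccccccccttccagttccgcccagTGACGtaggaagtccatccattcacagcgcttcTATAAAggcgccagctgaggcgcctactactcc
Jun: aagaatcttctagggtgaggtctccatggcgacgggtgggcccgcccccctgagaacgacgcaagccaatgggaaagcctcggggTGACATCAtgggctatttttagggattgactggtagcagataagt
Junb: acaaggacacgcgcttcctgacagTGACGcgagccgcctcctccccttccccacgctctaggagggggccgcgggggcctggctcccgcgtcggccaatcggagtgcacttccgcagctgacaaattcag
Ier3: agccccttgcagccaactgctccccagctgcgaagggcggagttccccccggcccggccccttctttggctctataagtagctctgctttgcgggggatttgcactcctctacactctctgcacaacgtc

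RefSeq windows of 250 bases before the start were read for 6 members, these 4 with Fosb and Jund. No window was available for Fosl1, Ier2 and Myc, and that of Egr1 was not read. TGACG occurred at 2 places for Fos, beginning 129 and 66 bases before the start, at 1 for Junb, 106 bases before, and at 1 for Fosb, 60 bases before. Of all 32851 windows, 17.8% held it. TGANNTCA occurred once for Jun, 45 bases before the start, and once for Jund, and in 11.9% of all windows. TATAAA occurred for Fos alone of the 6, 33 bases before the start, and in 12.4% of all windows. The CArG box, the element bound by SRF, was in none of the 6 and in 1.47% of all windows. These letters are thus not in these stretches, and nothing beyond them was read. For Egr1, described above as induced through ELK and SRF, this leaves the CArG box unexamined. CANNTG, the E-box bound by basic helix-loop-helix proteins, was in all 6 and in 66.2% of all windows. These matches describe letters, not binding.

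The genes whose profile over the 4 arrays was nearest to that of a member were found for Fosl1 and Jun. These were the members with the widest range in log2 by their brightest probe sets. For Jun that range was 1.79, against 0.37 with its second probe set, so its neighbours are those of 1 probe set. Distance was the root mean square difference of mean-centred log2 signals. For Jun the nearest of the kept genes were Prkar2a (0.084 log2 units), Sf3a1, Metrn, Lsm2 and Fcgr2b (0.11). Prkar2a and Fcgr2b were at background in KO replicate 3. Metrn gave 5090, 2877 and 1676 in KO replicates 1, 2 and 3, against 6061 in wild type. For Fosl1, whose KO replicate 1 was at background, they were Cdkn1c (0.15), Ndrg1, Fam162a, Slc2a3 and Ero1a (0.25). Ero1a gave 1168, 2251 and 4893 in the KO arrays, against 2819 in wild type. With 4 arrays this is a description of likeness alone.

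Among other immediate early genes, differences ran both ways. Of 42 listed, 41 were measured and 27 kept, of which 5 were higher and 8 lower in every KO array than in wild type, and limma called none. Over all genes tested these shares were 23.2% higher and 20.6% lower, and the counts for the lists below stand beside the same shares. Their median log2 difference was -0.19. Klf4, a Krüppel-like factor induced by p53, gave 253.7, 291.5 and 239.3 in the KO arrays, against 125.8 in wild type. All KO arrays were above wild type, by 0.97 on the log2 scale (SE 0.31, limma unadjusted p = 0.0159, adjusted p = 0.99997), and the second Klf4 probe set gave 259.4, 216.7 and 197.0 in the KO arrays, against 106.5 in wild type. Klf4 was the only 1 of the 27 at an unadjusted p under 0.05. Egr3, an EGR1 relative, gave 89.8, 165.2 and 57.6 in the KO arrays, against 173.0 in wild type, with KO replicate 3 at background. Per1, the clock gene, gave 82.4, 48.9 and 129.2 against 157.0. Arc, known from active synapses, gave 235.1, 254.0 and 21.8 against 267.3, with KO replicate 3 at background. For the pair pattern of Fos, KO replicate 1 and wild type were both higher in 6 of the 27 and both lower in 3, beside 25.8% and 24.8% of all genes. Nr4a1, Zfp36 and Mcl1, chosen after their values were seen, were among the 6. For Zfp36 the value of KO replicate 3 was at background. The brightest Mcl1 probe set differed by -0.43 between KO and wild type on the log2 scale, and its others by -0.63 to 0.09.

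Genes that lead to the induction of the family had a median difference near 0. Of 33 listed inducers, 23 were measured and 21 kept, 7 higher and 5 lower in every KO array (23.2% and 20.6% of all genes), none called by limma, with a median log2 difference of 0.0025. Elk1, the ERK-phosphorylated partner of SRF, gave 126.6, 121.0 and 95.6 in the KO arrays, against 235.8 in wild type. Every KO array was lower, with a log2 difference of -0.97 on average (SE 0.32, limma unadjusted p = 0.0189, adjusted p = 0.99997). Its second probe set gave 85.1, 142.7 and 132.8 against 138.2, a difference of -0.21, with KO replicate 2 above wild type. Elk4, of the same family, gave 590, 732 and 1118 in the KO arrays, against 504 in wild type, but its other probe sets fell to background in 1 and 2 arrays. Map2k1, the kinase above ERK, gave 1900, 1670 and 1142 against 2253. Creb1 gave 205.2, 121.4 and 155.5 against 230.8, and its other 3 probe sets were each at background in 1 or 2 arrays.

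**Figure D4:**
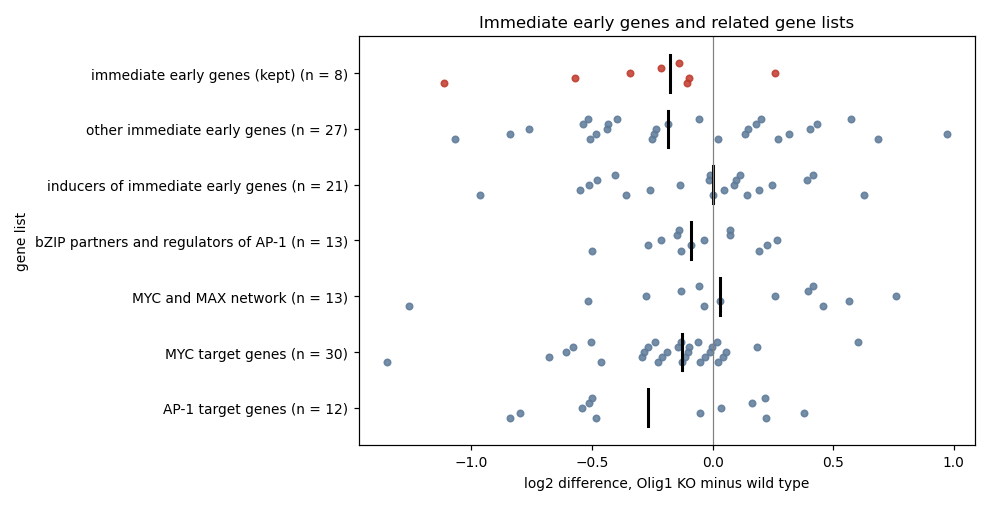
Log2 difference of KO from wild type (horizontal axis) for each kept gene of the immediate early members (red) and of 6 related lists (blue), with a black bar at each list's median. Vertical scatter within a row carries no value. The medians lie between -0.27 and 0.030.

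Partners and regulators of AP-1 also had a median near 0. Of 20 listed, 19 were measured and 13 kept, 2 higher and 2 lower in every KO array, none called, with a median of -0.09. Atf4, a bZIP factor of the amino acid response, gave 2279, 1960 and 1710 in the KO arrays, against 2377 in wild type, but another of its probe sets, whose _x_at suffix marks possible cross-hybridization, differed by 0.80. Cops5, a coactivator of JUN, differed by -0.15, Jdp2, a repressor of JUN, by 0.23 and Mafg by 0.19. Of 27 AP-1 targets, 26 were measured and 12 kept, 1 higher and 2 lower in every KO array, none called, with a median of -0.27. Mmp14, a membrane-bound matrix protease, gave 169.1, 125.1 and 133.0 in the KO arrays, against 256.5 in wild type, which is -0.80 on the log2 scale (SE 0.32, limma unadjusted p = 0.0424, adjusted p = 0.99997). Its second probe set was at background in all KO arrays. Cd44, the hyaluronan receptor, gave 362.5, 316.0 and 373.8 in the KO arrays, against 506.0 in wild type, and Vim differed by 0.16.

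The MYC network was measured by 18 of 18 listed genes, of which 13 were kept, 4 higher and 2 lower in every KO array, none called, with a median of 0.03. Mycl, a MYC relative, gave 119.4, 129.0 and 35.0 in the KO arrays, against 220.6 in wild type, with KO replicate 3 at background. Its second probe set gave 76.4, 48.1 and 54.5 against 156.8, and the third 49.0, 87.2 and 70.6 against 107.2, each again with KO replicate 3 at background. Wild type was thus the highest array with all 3 probe sets. Mxd4, a MAX partner that represses MYC targets, gave 923, 965 and 1294 in the KO arrays, against 704 in wild type, but its 3 other probe sets differed by -0.10 to 0.46. Mxd3, of the same family, differed by 0.76, -0.56 and 0.04 with its 3 probe sets. Bin1, a MYC-interacting adaptor, differed by -0.52.

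Of 32 MYC targets, all were measured and 30 kept, 1 higher and 4 lower in every KO array, none called, with a median of -0.13. In 18 of the 30, KO replicate 1 and wild type were both above KO replicates 2 and 3, beside 25.8% of all genes, and in 4 both were below. Both were above in 6 of 21 inducers, 5 of 13 AP-1 partners, 4 of 12 AP-1 targets and 3 of 13 MYC network genes. In the same order, both were below in 4, 1, 2 and 5. Nolc1, a nucleolar factor, gave 788, 513 and 215.9 in KO replicates 1, 2 and 3, against 722 in wild type. Ddx21, a nucleolar helicase gene, gave 982, 562 and 432.4 against 735. Both were chosen after their values were seen, as examples of this pattern, which Myc itself did not share. Npm1, the nucleophosmin gene, was higher in every KO array with its brightest probe set, at 8158.5, 10434 and 12385 against 6706 in wild type, which is 0.60 on the log2 scale (SE 0.35, limma adjusted p = 0.99997). Its second probe set gave 5962, 8842 and 9676 against 6015, with KO replicate 1 just below wild type. Rrp9, a processing factor of ribosomal RNA, gave 235.8, 103.7 and 46.0 against 295.0, with KO replicate 3 at background. Eif4e differed by -0.61 and Odc1 by -0.27, with KO lower in every array by the brightest probe set of each. The other Eif4e probe sets differed by -0.26 and -0.11. Those of Odc1 differed by 0.11 and -0.11, both with KO replicate 3 above wild type.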

How the data were processed

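The 4 arrays were deposited as MAS5 signal intensities, 1 per probe set, per the submitters' processing notes. Neither version nor scaling target is given in the sources used here. The authors had scaled the arrays, since trimmed means (2% from each tail) were 500.2 to 500.3. RNA (6 µg) was extracted with Trizol, per the labels' protocols. The table held 22690 probe sets, of which 20393 had 1 symbol, 691 several and 1606 none. Control probe sets were left out, and symbols were updated through a RefSeq table of GRCm38.p6.

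Signals became log2(signal + 14.4). limma 3.58.1 in R 4.3.3 (lmFit, eBayes) was fitted across all kept genes, two-sided, with Benjamini-Hochberg adjustment, at 2 residual and 5.23 prior degrees of freedom. The spread came from the KO arrays alone, so equal variation was assumed for wild type. The fit was tested on simulated data with independent errors, equal spread in all arrays and no array pairs. That test therefore does not cover the pairing of arrays seen here.

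Named genes were the members, Olig1, Olig2, the array controls, up to 4 genes per list with wild type outside the KO range, ordered by size, the nearest profiles and cell type markers. Nr4a1, Zfp36, Mcl1, Nolc1 and Ddx21 fall outside this rule and were picked once their values were known. Members, lists and tests were chosen with earlier results of these data known, and the promoter motifs after reading the promoters.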

Additional observations from a re-analysis of the deposited data

How the results depend on the processing

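No gene and no probe set was called at any pseudocount (0.01, 0.1 or 0.5 times the median), filter, normalization, probe set rule, eBayes setting or with the array pair as a block; at an unadjusted p under 0.05 these fits took 110 to 320 genes, against 168 as reported. Leaving out each KO array took 63 to 486 genes at that level, the most without KO replicate 1 and the fewest without KO replicate 2, and gave 0 to 2 called genes and 0 to 2 called probe sets; the 2, without KO replicate 1, were Eif2s3y and Tmem87a, and neither is an immediate early gene. The kept members' median log2 difference, -0.18, was 0.40 with the pair as a block (all kept genes: 0.024). Signs turned under the block for Fos (0.58), Junb (0.59), Jund (0.22), Egr1 (0.39), Ier2 (0.44), Ier3 (-0.0028) and Myc (0.41), at gene and probe set level alike, since the block leaves only KO replicate 1 against wild type. With 1 KO array left out, Fos ranged over -0.80 to 0.0031, Jund over -0.32 to 0.0090, Egr1 over -0.36 to 0.12 Myc over -0.35 to 0.38, Ier2 over -1.08 to -0.24 and Junb over -0.61 to -0.0033. The low end of each came without KO replicate 1. The high end came without KO replicate 2 for Fos and Egr1 and without KO replicate 3 for Jund, Myc, Ier2 and Junb. Jun kept its sign in all 13 fits (-1.44 to -0.47), with adjusted p between 0.75 and 0.99999. The other 173 gene and probe set values kept their sign and side of the threshold. Members at background in 1 array (Fosb, Fosl1, Junb) have no exact difference.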
